A study of Mus musculus with 8 samples.

Results

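Histone transcripts were measured in single cells sorted from the dentate gyrus of young, adult and older mice. The genes described here are the 83 of 31058 features whose symbol starts with Hist1h to Hist4h, H2af, H1f or H3f3. They comprise 67 replicative histone genes (the Hist symbols) and 16 genes matched by the variant patterns, and they were chosen by name, with no measured value in the rule. The mice were heterozygous for Nestin-GFP, for Ki67-creERT2 (a tamoxifen-inducible recombinase made in dividing cells) and for a tdTomato reporter whose stop sequence the recombinase removes, on a mixed C57BL/6J and CD1 background. Every mouse received tamoxifen for 6 days and was killed on day 8, and no untreated group is among the samples. Each of the 7 experiments pooled several male and female mice, of which 1 used mice aged 1 month, 3 used mice of 2 months and 3 used mice labelled 6 months (6 to 8 months in the design text). GFP+tdTomato+ and GFP+tdTomato- cells were loaded together, except in the first 2-month experiment, which gave 2 libraries. The 2-month libraries were made with Version 2 of the 10x 3′ chemistry and all others with Version 3, so age and chemistry cannot be told apart between these groups.

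Replicative histones (H1, H2A, H2B, H3 and H4) package newly copied DNA and are made in large amounts during S phase. Their genes stand in clusters, lack introns, and give mRNAs that end in a conserved stem-loop, bound by the stem-loop binding protein Slbp, where other mRNAs carry a poly(A) tail. Variant histones such as H2A.Z (H2afz), H2A.X (H2afx), macroH2A (H2afy, H2afy2), H3.3 (H3f3a, H3f3b) and the linker histone H1.0 (H1f0) come from separate genes with ordinary polyadenylated mRNAs and are laid down outside replication as well as during it. The 3′ chemistry primes reverse transcription on runs of A. It therefore captures replicative histone mRNAs, and any H2afx mRNA ending at its stem-loop, only where they carry a poly(A) tail or an internal run of A. For that reason family totals, sums and shares below describe captured UMIs, and a difference between genes is not read as a difference in mRNA amount. The tests compare each gene across populations instead. If the captured share of a gene's mRNA differs between populations, its fold change holds that difference too. This was not tested, so rises and falls below are of captured UMIs.

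The files held 26036 barcodes, of which 24376 passed the filters of more than 500 genes and under 10% mitochondrial UMIs (unique molecular identifiers, each standing for a captured molecule). Libraries held 4589597 to 43250922 UMIs, with medians of 2061 to 7768.5 UMIs per kept cell. Cells were assigned to types by the number of markers detected from fixed lists, and to a cycling or non-cycling state from 38 S-phase and 51 G2/M genes, none of them a histone. The gates gave 21702 assigned cells, 2188 unassigned cells and 486 cells with markers of several lineages. The last were left out of the typed populations as doublets but stay in totals and shares over kept cells. Of 695 microglia-like cells, 646 (92.9%) came from the library of the first 2-month experiment whose label also names GFP-tdT- cells, and leaving that library out changed no count of histone calls by more than 1.5 times. At least 1 of the fixed markers stood among the 10 leading genes of each class except OPC-like cells (oligodendrocyte precursors), where none did. The number ran from 1 in newly formed oligodendrocyte-like to 6 in microglia-like cells. As these markers set the gates, this is no separate support for the class names. The haemoglobin genes Hba-a1, Hbb-bs, Hba-a2 and Hbb-bt led the endothelial-like cells. The leading genes of IPC-like cells (intermediate progenitors) included Hist1h2ae, Hist1h2ap and the S-phase genes Rrm2 and Cdca7. In all, 59 barcode sequences occurred in more than 1 library.

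Of the 67 replicative genes, 54 lie on chromosome 13, 10 on chromosome 3, 2 on chromosome 11 and 1 on chromosome 6. All 67 had at least 1 UMI, 9 had under 20, and 36 had a UMI in at least 1% of kept cells. Together they held 171914 UMIs, and the variants held 876287. The 12 replicative genes with most UMIs held 88.5% of the replicative total, and the 10 variants found in at least 1% of cells held 99.98% of the variant total. Of the remaining 6 variants, H2afb1, H2afb2, H2afb3 and H1fnt were at 0 UMIs, the oocyte linker histone H1foo had 3, and H3f3aos had 157. H3f3aos is the antisense gene of H3f3a, and the strand setting of the counting was not given in the sources used here, so its reads cannot be told apart from those of its partner. By family, the replicative UMIs fell to H2B (65981 from 18 genes), H2A (54535 from 18 genes), the linker histone H1 (30041 from 6 genes), H4 (16274 from 13 genes) and H3 (5083 from 12 genes).

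The stem-loop was looked for in the annotated transcripts (GENCODE M21, GRCm38) as the letters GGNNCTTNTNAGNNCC. It stood in 46 of 67 replicative genes (68.7%), in 1 of 16 variants (H2afx, the variant phosphorylated at DNA breaks) and in 154 of 55367 other genes (0.278%). Some annotated transcripts without the letters are short, such as those of Hist1h2ak (393 bases), Hist1h2bl (381 bases) and Hist1h4k (312 bases), and may stop before a stem-loop. Absence of the letters, here and below, is therefore absence from the annotated transcript. The sites below are shown because they differ in where they stand, with the matched letters in capitals. In Hist1h2ap (H2A, chr13:21833026-21833507, minus strand) the transcript ends 3 bases after the printed core. In Hist3h2ba (H2B, chr11:58948920-58949533, plus strand), Hist1h4d (H4, chr13:23581598-23582735, plus strand), Hist1h1c (H1, chr13:23738808-23740367, plus strand) and H2afx (chr9:44334694-44336077, plus strand) the annotated transcript runs on for 169, 770, 840 and 822 bases.

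Hist1h2ap: aaaaGGCTCTTTTCAGAGCCatc
Hist3h2ba: caaaGGCTCTTTTCAGAGCCacct
Hist1h4d: caaaGGCCCTTTTCAGGGCCacta
Hist1h1c: aaaaGGCTCTTTTCAGAGCCacca
H2afx: caaaGGCCCTTTTAAGGGCCacca

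A poly(A) signal (AATAAA) stood in the last 40 annotated bases of 15 of 67 replicative and 9 of 16 variant genes. Near-identical copies limit how far single genes can be told apart. Of the 90-base windows of Hist1h2ap, 92.4% also stood in the transcript of another gene, against 31.9% for Hist1h2ae, 30.1% for Hist3h2a, 26.1% for Hist1h2bc, 8.57% for Hist3h2ba, 5.71% for Hist1h1c, 0.858% for Hist1h4d and 0% for Hist1h1b. The values of Hist1h2ap and of other genes with shared windows are therefore those of a gene as the authors' counting assigned it. For H2afz, a variant gene with intronless copies elsewhere, the share was 32.3%.

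The promoters were read from RefSeq (GRCm38.p6), which held 76 of the 83 members. The window before the start site held CCAAT in 51 of 62 replicative genes (82.3%, against 33.9% of 32851 promoters of all genes), TATAAA in 29 of 62 (46.8%, against 12.4%) and the octamer ATTTGCAT in 13 of 62 (21.0%, against 1.60%), on either strand. Among replicative promoters the octamer was found in H2A (7 of 18) and H2B (6 of 16) and in none of the other families. CCAAT stood in 18 of 18 H2A, 16 of 16 H2B, 6 of 6 H1, 8 of 10 H3 and 3 of 12 H4 promoters. Of 14 variant promoters, 9 held CCAAT, 1 TATAAA and 1 the octamer. The 150 bases upstream of 3 genes follow, with these letters in capitals: Hist1h1b (chr13:21780626-21780775, minus strand), whose UMIs came nearly all from cycling cells, Hist3h2ba (chr11:58948761-58948910, plus strand), whose UMIs did not, and H2afz (chr3:137864337-137864486, plus strand), the variant with the second highest fold change with cycling in NSC-like cells.

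Hist1h1b: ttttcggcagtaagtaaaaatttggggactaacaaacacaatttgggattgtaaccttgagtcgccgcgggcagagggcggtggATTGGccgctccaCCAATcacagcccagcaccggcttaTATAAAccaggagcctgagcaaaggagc
Hist3h2ba: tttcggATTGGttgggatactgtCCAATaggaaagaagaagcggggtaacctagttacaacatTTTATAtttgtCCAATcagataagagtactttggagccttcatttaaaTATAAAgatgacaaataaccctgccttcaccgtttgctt
H2afz: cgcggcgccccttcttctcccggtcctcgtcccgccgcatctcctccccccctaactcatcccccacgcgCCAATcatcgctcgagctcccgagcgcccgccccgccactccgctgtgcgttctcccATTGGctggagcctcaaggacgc

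The letters did not separate the first promoter from the second: both held CCAAT and TATAAA, and H2afz held CCAAT on each strand and no TATAAA.

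Over all kept cells, with unassigned cells and doublets counted, cycling cells made up 7.49% of cells. They held 12.9% of all UMIs, 40.4% of replicative and 30.2% of variant histone UMIs. The members differed widely in this share. Of the 58 replicative genes with at least 20 UMIs, 39 had over 50% of their UMIs in cycling cells, 17 had over 80% and 5 had under 20%. At the high end stood Hist1h3c (99.2%), the linker histone Hist1h1b (95.6%), Hist1h2ap (94.0%) and Hist1h2ae (88.3%). At the low end stood the H2B genes Hist1h2bc (11.6%) and Hist3h2ba (13.1%) and the H2A gene Hist3h2a (12.5%), close to the 12.9% of all UMIs. Between these lay Hist1h1e (48.1%), Hist2h2ac (46.1%), Hist1h4d (45.9%), Hist1h4i (35.8%), Hist1h1c (30.4%) and Hist1h4h (22.6%). The 13 genes with a poly(A) signal near their annotated end had a median of 33.1% (12.5% to 88.3%), and the 45 without had a median of 71.9% (11.6% to 99.2%). Among variants the share ran from 9.26% for H2afj to 65.7% for H2afx, with H2afz at 58.0%, H1fx at 55.6% and H2afv at 42.3%.

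Levels are given as UMIs of a gene per 10000 UMIs of a population, summed per experiment, as mean ± SD over experiments. Non-cycling IPC-like (31 cells), fibroblast-like (38 cells) and neuron-like cells (18 cells) were too few to be placed in an order, at summed replicative levels of 19.6 ± 9.78 (n = 5), 9.77 ± 1.84 (n = 6) and 5.85 ± 0.935 (n = 2). Among the other 9 non-cycling types the level was highest in neuroblast-like cells (immature neurons, 19.9 ± 3.46, n = 7), followed by NSC-like cells (neural stem cells, 11.8 ± 1.57, n = 7), astrocyte-like cells (10.7 ± 1.51, n = 7), myelinating oligodendrocyte-like cells (7.75 ± 1.75, n = 7) and OPC-like cells (6.35 ± 0.948, n = 7). It was lower in newly formed oligodendrocyte-like (4.0 ± 0.748, n = 6), endothelial-like (3.94 ± 0.885, n = 7), mural-like (3.52 ± 0.774, n = 7) and microglia-like cells (2.31 ± 0.939, n = 5). Most microglia-like cells came from 1 library of the first 2-month experiment, which stood at 2.29. The other microglia-like sums held few cells, with 32 in the 2 Version 3 experiments together, so the place of this type is uncertain. Neuroblast-like cells (15.9 to 26.0) did not overlap NSC-like cells (9.95 to 14.3). Their sum was mostly H2B (10.6 ± 2.06) and H2A (6.07 ± 0.664), with Hist3h2ba and Hist3h2a the main genes, as given below. Their H1 mean (1.70) was above that of NSC-like cells (1.38), but H3 (0.222 against 0.328) and H4 (1.31 against 1.62) were below. Gene by gene, 3 of 29 replicative genes rose and 10 fell between these types, beside 28.7% of all genes higher and 35.8% lower. The falls were thus near the share over all genes, and the higher sum does not describe replicative genes in general. The other neighbours overlapped in range, but within experiments astrocyte-like cells were above myelinating cells in 7 of 7 and OPC-like above newly formed oligodendrocyte-like cells in 6 of 6. No test was run on these sums. The summed variant level of the same 9 types followed another order, from neuroblast-like cells (106 ± 8.82) and mural-like cells (62.2 ± 4.71) down to NSC-like (37.1 ± 2.91) and astrocyte-like cells (24.7 ± 3.09), with the few non-cycling IPC-like cells at 118 ± 31.6. As a share of all histone UMIs, the replicative genes were at 30.3% in astrocyte-like and 24.2% in non-cycling NSC-like cells and at 5.08% in microglia-like cells. The map of mean levels shows how unlike these profiles were.

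**Figure D1:**
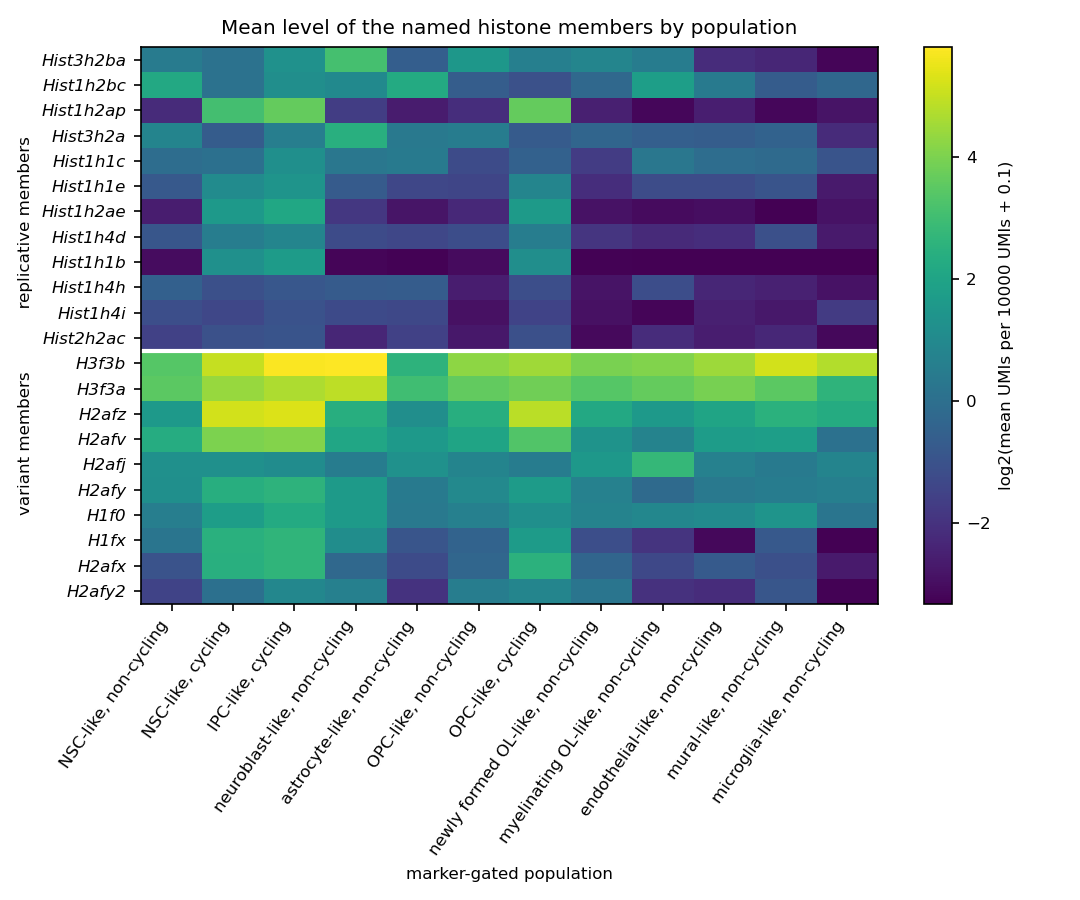
Mean level of the 12 replicative (top) and 10 variant (bottom) histone genes in 12 marker-gated populations, as log2 of the mean UMIs per 10000 UMIs plus 0.1, averaged over experiments. Hist1h2ap, Hist1h2ae and Hist1h1b are bright only in the 3 cycling populations, while Hist3h2ba is brightest in neuroblast-like cells and Hist1h2bc in NSC-like, astrocyte-like and myelinating oligodendrocyte-like cells.

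The first question was how the histone genes differ between cycling and non-cycling cells of the same type and experiment. UMIs were summed per experiment and state and tested with edgeR's quasi-likelihood method over all genes, with the experiment as a block and Benjamini-Hochberg adjustment at 0.05. Over all 12 comparisons, fold changes are given on the log2 scale with their standard error. In NSC-like cells (327 cycling and 1838 non-cycling cells, 7 experiments) 31 of 47 tested replicative genes rose, 5 fell and 11 did not pass. Of all 12229 genes tested, 24.5% were higher and 29.2% lower in cycling cells. Of 10 variants 9 rose and none fell. The median log2 fold change was 2.05 over replicative genes, 1.60 over variants and -0.11 over all genes.

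Cycling NSC-like cells held more than non-cycling ones of the S-phase H2A gene Hist1h2ap in every experiment. Its level was 0 at the lowest, 0.111 at the median and 0.326 at the highest in non-cycling cells, and 3.66, 5.22 and 26.9 in cycling cells, so the groups did not overlap (log2 fold change 5.96 ± 0.16, n = 7). The second 6-month experiment was the highest in both states. Hist1h2ae, another H2A gene on chr13:23570517-23571220, went from 0, 0.0424 and 0.147 to 0, 2.72 and 9.32 (5.30 ± 0.17, higher in 6 of 7 experiments). The H1 gene Hist1h1b (chr13:21779883-21780625) went from 0, 0.0339 and 0.0489 to 0, 1.67 and 6.20 (6.68 ± 0.21, higher in 5 of 7). The zeros among cycling cells were all in Version 2 experiments. When cells with at least 2000 UMIs were thinned to 2000, Hist1h2ap had a UMI in 29.4% of cycling NSC-like cells and 2.57% of non-cycling ones. Before thinning, with cells under 2000 UMIs included, the shares were 41.3% and 5.11%. Among microglia-like cells the thinned share was 2.81%, and among myelinating oligodendrocyte-like cells 0.174%, so the share in non-cycling NSC-like cells lay between those of other types and is not read as expression.

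The other risers spanned each family. Among H2A genes, Hist1h2ak rose by 4.62 ± 0.34 and Hist1h2af by 5.50 ± 0.40, and weaker rises were called for Hist2h2ac (1.39 ± 0.22, higher in 4 of 7 experiments) and Hist1h2ac (0.80 ± 0.31). Hist1h2an was at 94 UMIs in cycling and 0 in non-cycling cells, Hist1h2ab at 42 and 1, and Hist1h2ai at 31 and 2. Among H2B genes, the calls ran from Hist1h2bh (1.61 ± 0.55), Hist1h2bg (1.96 ± 0.65), Hist1h2br (2.05 ± 0.46) and Hist1h2bf (2.10 ± 0.66) through Hist1h2bb (2.65 ± 0.57), Hist1h2bl (3.33 ± 0.57), Hist1h2bj (3.55 ± 0.45) and Hist2h2bb (3.58 ± 0.50) to Hist1h2bm (3.87 ± 0.53) and Hist1h2bn (4.18 ± 0.60). Among H3 genes, Hist1h3c was at 129 UMIs in cycling and 1 in non-cycling cells, and Hist1h3d (1.89 ± 0.40), Hist1h3a (2.65 ± 0.52), Hist1h3e (2.84 ± 0.29), Hist1h3i (3.28 ± 0.52) and Hist1h3f (3.68 ± 0.50) rose. Among linker histones, Hist1h1e (1.90 ± 0.13), Hist1h1d (4.12 ± 0.31) and Hist1h1a (4.34 ± 0.48) rose with Hist1h1b. Among H4 genes, Hist1h4d (1.48 ± 0.14) and Hist1h4a (2.50 ± 0.41) rose.

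The clearest fall was in an H2B gene whose UMIs came mostly from non-cycling cells. Hist1h2bc was at 3.38, 4.06 and 5.32 (lowest, median, highest) in non-cycling NSC-like cells and 0.582, 0.785 and 1.72 in cycling ones. The groups did not overlap, and the gene was lower in 7 of 7 experiments (-2.24 ± 0.12, adjusted p = 2.4e-78 by edgeR's quasi-likelihood test). Hist3h2a went from 1.03, 1.52 and 2.47 to 0.304, 0.526 and 0.872 (-1.66 ± 0.14, lower in 7 of 7). Its neighbour on chromosome 11, Hist3h2ba, overlapped between states, at 0.901, 1.16 and 1.93 against 0.667, 0.996 and 1.29 (-0.53 ± 0.13, lower in 6 of 7, adjusted p = 9.7e-05). Hist1h4h (-0.53 ± 0.17, lower in 5 of 7, but -0.13 with adjusted p = 0.54 in the Version 3 experiments alone and -3.38 in the Version 2 experiments alone) and Hist2h3c2 (-2.10 ± 0.56, 6 against 65 UMIs) also fell. Hist1h1c (0.15 ± 0.13, adjusted p = 0.35) and Hist1h4i (-0.02) did not pass.

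The variants other than H2afj rose together. H2afz, an H2A variant found around transcription start sites, went from 2.45, 2.96 and 3.29 to 22.9, 37.9 and 43.5 (3.54 ± 0.11, higher in 7 of 7). H2afx went from 0.339, 0.416 and 0.446 to 1.60, 4.92 and 9.95 (3.70 ± 0.12). H1fx, a linker histone, went from 0.414, 1.10 and 1.53 to 3.35, 6.04 and 6.83 (2.31 ± 0.11). None of these overlapped between states. The H2A.Z gene H2afv (1.64 ± 0.10), the H3.3 genes H3f3b (1.56 ± 0.10) and H3f3a (0.87 ± 0.10), the macroH2A genes H2afy2 (1.75 ± 0.16) and H2afy (1.15 ± 0.10) and H1f0 (1.10 ± 0.11) were each higher in 7 of 7. H2afj, an H2A variant, was the exception at 1.59, 2.40 and 3.17 against 1.87, 2.27 and 2.68 (-0.06 ± 0.11, adjusted p = 0.63). Cycling cells held more UMIs (a median of 8326 UMIs per cell over experiments, against 3859). The study reported lower total mRNA in quiescent than in proliferating stem cells, so this difference need not be depth alone. Levels per 10000 UMIs are shares of the UMIs of a population. A lower or unchanged level is therefore not read as fewer or equal molecules per cell.

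Within each chemistry the replicative and the variant genes did not behave alike. In the 4 Version 3 experiments 34 replicative genes rose and 4 fell with cycling in NSC-like cells, and in the 3 Version 2 experiments 2 rose and 7 fell. Most replicative genes called as risers above, such as Hist1h1b, Hist1h1e and Hist1h4d, held too few UMIs in Version 2 to be tested there. The 2 splits are therefore not of the same genes, and the shares of all genes called in these fits are not given here. Hist1h2ap rose by 6.17 in Version 3 and 5.44 in Version 2, Hist1h2ae by 5.46 and 3.48, and Hist1h2bc fell by 2.33 and 1.94. Hist2h2ac, counted above as a riser, was at -3.51 in Version 2 alone (adjusted p = 1.7e-05 by edgeR), and its call was lost with robust estimation of the spread. The 9 variant rises were called within each chemistry, with H2afz at 3.52 and 3.62. The summed replicative level of cycling NSC-like cells was 37.9 ± 26.7 (18.1 to 77.2, n = 4) in Version 3 and 10.7 ± 1.84 (8.73 to 12.4, n = 3) in Version 2, beside 11.6 ± 1.28 and 12.1 ± 2.19 in non-cycling cells. The summed variant level was 124 ± 21.8 and 131 ± 11.2. Thus at 2 months the summed replicative level of cycling NSC-like cells was not above that of non-cycling ones, and age and chemistry cannot be told apart as the difference from the other experiments.

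**Figure D2:**
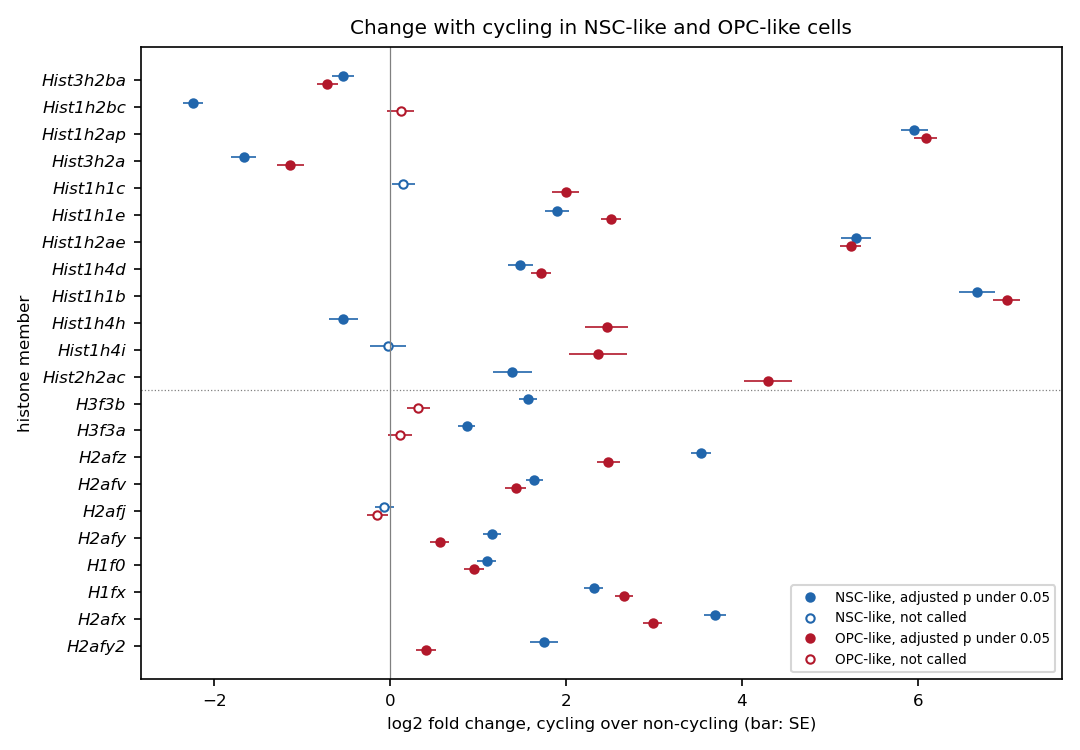
Log2 fold change of cycling over non-cycling cells (x axis, bar: standard error) for the 12 replicative (above the dotted line) and 10 variant histone genes (below it), in NSC-like cells (blue) and OPC-like cells (red), with filled points at an adjusted p under 0.05. Hist1h2ap, Hist1h2ae and Hist1h1b lie above 5 in both cell types, and Hist3h2ba and Hist3h2a lie below 0 in both.

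IPC-like cells, the dividing progeny of stem cells, could be compared in 5 experiments with only 31 non-cycling cells. Of 44 replicative genes tested 8 rose and none fell, and of 10 variants 5 rose and none fell, beside 4.46% of all 9907 genes higher and 0.262% lower. Of the 44 genes 31 had at most 3 UMIs in a group. Hist1h2ap was at 5 UMIs in non-cycling cells against 4561 in cycling ones (5.64 ± 0.49, adjusted p = 1.6e-26). Hist1h2ae had 1683 UMIs in cycling cells and 1 in the others, Hist1h1b 914 and 2, Hist1h2af 185 and 0, Hist1h2ak 132 and 0, and Hist1h1a 117 and 0. Hist1h4d (1.85 ± 0.56) and Hist1h1e (1.67 ± 0.51) rose as well. The variants that rose were H2afx (3.18 ± 0.42), H2afz (2.73 ± 0.26), H1fx (2.08 ± 0.36), H2afv (1.62 ± 0.27) and H2afy (1.07 ± 0.31). In the 7 experiments, cycling IPC-like cells held a replicative level of 40.6 ± 25.2 (16.7 at the lowest, 37.3 at the median, 89.1 at the highest). The scaling shifted this comparison: the median over all genes was 0.46, and 0.01 with total UMIs, where 8 replicative genes rose and 3 fell and 4 variants rose. The shares of all genes given above are those with TMM scaling, and those with total UMIs are not given here. Without the 1-month experiment, or without the second 2-month experiment, 8 members were called in place of 13.

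In OPC-like cells, a dividing glial lineage of the same tissue, 5 experiments held enough cycling cells (257 cells, with 8 and 14 of them in the first and the third 2-month experiments). Of 45 replicative genes tested 38 rose and 2 fell, and of 11 variants 7 rose and none fell, beside 12.1% of all 13877 genes higher and 9.49% lower. The median log2 fold change was 3.43 over replicative genes, 0.56 over variants and -0.06 over all genes. Hist1h2ap was at 3.56 in the 1-month experiment, 30.1 and 1.92 in the first and the third 2-month experiments and 22.2 and 4.55 in the second and the third 6-month experiments, against 0.0296 to 0.256 in the non-cycling cells (6.09 ± 0.13). The cycling values were all above the non-cycling ones but spread widely among themselves. Hist1h1b was at 1.19, 0, 0, 6.04 and 3.75 in the same order (7.01 ± 0.15), with both zeros in Version 2. Hist1h2ae (5.24 ± 0.12), Hist1h1e (2.51 ± 0.11), Hist1h4d (1.72 ± 0.12), Hist1h1c (2.00 ± 0.15), Hist1h4h (2.46 ± 0.25), Hist1h4i (2.36 ± 0.34) and Hist2h2ac (4.30 ± 0.27) rose too.

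The less abundant replicative genes that rose in OPC-like cells were of all families. H2A genes were Hist2h2ab (2.84 ± 0.72), Hist2h2aa1 (2.85 ± 0.44), Hist1h2ac (4.17 ± 0.42), Hist1h2ai (5.0 ± 0.51), Hist1h2ak (5.32 ± 0.29), Hist1h2ab (5.96 ± 0.43), Hist1h2an (7.24 ± 0.41) and Hist1h2af (8.02 ± 0.40). H2B genes ran from Hist1h2bf (1.76 ± 0.66), Hist1h2be (1.83 ± 0.29) and Hist1h2bg (2.59 ± 0.57) to Hist1h2br (4.31 ± 0.50), Hist2h2bb (4.61 ± 0.39), Hist1h2bb (4.67 ± 0.54), Hist1h2bl (4.78 ± 0.50), Hist1h2bj (4.88 ± 0.43), Hist1h2bn (5.22 ± 0.52) and Hist1h2bm (5.34 ± 0.48). H3 genes were Hist1h3d (2.51 ± 0.57), Hist1h3e (3.32 ± 0.25), Hist1h3f (3.43 ± 0.45), Hist1h3i (3.79 ± 0.36), Hist1h3a (5.68 ± 0.54) and Hist1h3c, at 155 UMIs against 0. The linker genes Hist1h1a (5.09 ± 0.34) and Hist1h1d (5.22 ± 0.27) and the H4 genes Hist1h4c (1.62 ± 0.45), Hist2h4 (2.04 ± 0.53) and Hist1h4a (2.69 ± 0.39) complete the count. Both falls were on chromosome 11, Hist3h2a (-1.14 ± 0.15) and Hist3h2ba (-0.71 ± 0.12), each lower in 5 of 5 experiments. Within the 3 Version 3 experiments 37 replicative genes rose and 2 fell, and within the 2 Version 2 experiments 1 rose (Hist1h2ap) and none fell, with 22 cells behind those sums. The shares of all genes called in these fits are not given here, so the counts are not read as a difference between chemistries.

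Among variants in OPC-like cells, H2afx (2.98 ± 0.10), H1fx (2.66 ± 0.10), H2afz (2.48 ± 0.13), H2afv (1.43 ± 0.12) and H2afy (0.56 ± 0.11) were higher in 5 of 5 experiments, and H1f0 (0.96 ± 0.11) and H2afy2 (0.41 ± 0.11) in 4 of 5. The H3.3 genes did not pass: H3f3b was at 0.32 (adjusted p = 0.067) and H3f3a at 0.11 (adjusted p = 0.60), and H2afj was at -0.14.

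Whether cycling changed the genes differently in neural progenitors (NSC-like and IPC-like cells summed) and in OPC-like cells was tested as an interaction in the 5 experiments with all populations. Over all experiments, the cycling neural progenitors were 563 IPC-like and 327 NSC-like cells, and the non-cycling ones 34 and 1838. The neural effect therefore also holds the difference between these types, and the parts cannot be told apart in this test. In NSC-like cells alone, for example, Hist3h2a fell by more with cycling than in OPC-like cells, against the direction given below. Of 55 replicative genes tested 3 had a higher and 10 a lower cycling effect in neural progenitors, and of 11 variants 8 had a higher and none a lower one, beside 16.7% and 14.6% of all 14679 genes. The largest variant differences were in H2afy2 (2.00 ± 0.19, adjusted p = 4.9e-14), H3f3b (1.85 ± 0.19), H2afz (1.34 ± 0.18), H2afx (1.10 ± 0.21) and H3f3a (1.00 ± 0.18), followed by H1f0 (0.91 ± 0.22), H2afy (0.78 ± 0.17) and H2afv (0.48 ± 0.18). Hist3h2ba (1.28 ± 0.20), Hist3h2a (0.78 ± 0.24) and Hist1h2ae (0.81 ± 0.33) were the replicative genes with a higher effect. Lower effects were found for Hist1h2bc (-1.38 ± 0.23, adjusted p = 1.7e-06), Hist1h4h (-2.57 ± 0.35), Hist1h4i (-1.99 ± 0.36), Hist2h2ac (-2.39 ± 0.50), Hist2h2aa1 (-2.17 ± 0.64), Hist1h2ac (-2.07 ± 0.51), Hist1h2be (-1.08 ± 0.39), Hist1h1c (-0.79 ± 0.26), Hist1h3a (-1.95 ± 0.78) and Hist1h3c (-2.83 ± 1.11, a fit on 1 and 0 UMIs in non-cycling NSC-like and OPC-like cells that gives no bound). The S-phase genes Hist1h2ap (0.59 ± 0.35, adjusted p = 0.21) and Hist1h1b (0.16 ± 0.49, adjusted p = 0.86) did not pass. The calls of Hist2h2ac, Hist2h2aa1, Hist1h2ae and Hist1h1c were lost with robust estimation of the spread. With the cycling rule of the study the replicative split was 10 higher and 3 lower.

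The second question was where in the cycle the members stood. Cycling neural progenitors were first split into S and G2/M by which gene set had the larger share of its genes detected. No replicative gene was higher in S and 39 of 55 were lower, and no variant was higher and 6 of 10 were lower, beside 9.14% and 10.4% of all 11371 genes. The S-phase H2A genes Hist1h2ap (-1.00 ± 0.06) and Hist1h2ae (-1.22 ± 0.08), the linker gene Hist1h1b (-0.86 ± 0.09), the genes Hist3h2a (-1.24 ± 0.12) and Hist1h2bc (-1.09 ± 0.10) and the variants H2afx (-1.99 ± 0.07), H1fx (-1.63 ± 0.07), H1f0 (-1.37 ± 0.07), H2afz (-1.13 ± 0.05), H2afv (-1.01 ± 0.05) and H3f3b (-0.88 ± 0.05) were lower in S. Among the replicative genes called, the range was -0.58 (Hist1h1a) to -1.83 (Hist1h4j), with Hist2h2ab (-1.77 ± 0.65), Hist1h3b (-1.76 ± 0.52), Hist2h3b (-1.54 ± 0.54), Hist1h2bp (-1.51 ± 0.53), Hist2h4 (-1.31 ± 0.34), Hist2h2be (-1.23 ± 0.35) and Hist2h3c1 (-1.17 ± 0.35) between them. Lower in S as well were the H2A genes Hist1h2ab (-1.34 ± 0.32), Hist1h2af (-1.15 ± 0.15), Hist1h2ai (-1.03 ± 0.35), Hist1h2ac (-0.92 ± 0.22), Hist2h2ac (-0.84 ± 0.18) and Hist1h2ak (-0.65 ± 0.15) and the H2B genes Hist1h2bh (-1.61 ± 0.42), Hist1h2bg (-1.49 ± 0.43), Hist2h2bb (-1.48 ± 0.27), Hist1h2bn (-1.47 ± 0.33), Hist1h2bl (-1.13 ± 0.33), Hist1h2bm (-0.94 ± 0.28), Hist1h2br (-0.89 ± 0.31), Hist3h2ba (-0.88 ± 0.09) and Hist1h2be (-0.83 ± 0.27). The H3 genes Hist1h3f (-1.74 ± 0.30), Hist1h3d (-1.35 ± 0.27), Hist1h3e (-1.32 ± 0.18) and Hist1h3c (-1.32 ± 0.18), the H4 genes Hist1h4h (-1.30 ± 0.17), Hist1h4i (-1.02 ± 0.18) and Hist1h4d (-0.99 ± 0.10) and the linker genes Hist1h1d (-1.22 ± 0.15), Hist1h1c (-1.19 ± 0.10) and Hist1h1e (-0.98 ± 0.09) followed. Without the experiment as a block 15 members were called in place of 45. Within the Version 2 experiments 9 replicative genes and 6 variants were lower in S, in a fit whose share of all genes called is not given here. Most of these cells expressed genes of both sets, which a split by the larger share cannot show. NSC-like and IPC-like cells were summed here, and their shares in S and in G2/M are not given.

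A finer split, chosen after seeing the data, separated cycling neural progenitors that passed the gate with S genes alone (253 cells), with both sets (574 cells) and with G2/M genes alone (63 cells). The summed replicative level was 7.46 ± 2.55 with S genes alone, 47.8 ± 33.4 with both and 27.3 ± 7.21 with G2/M genes alone (n = 7 each). The lowest, median and highest experiments were at 4.56, 7.0 and 12.1, at 16.3, 45.5 and 110, and at 16.6, 26.6 and 39.6. The range of cells with S genes alone thus lay wholly below those of the other groups of cycling cells. Their mean was also below that of non-cycling NSC-like cells (11.8 ± 1.57), with overlap. Each of these groups sums NSC-like and IPC-like cells, in shares not given here. Cell type and cycle position therefore cannot be told apart in the differences between them, nor in the comparison with NSC-like cells. The summed variant level was 97.3 ± 8.38, 166 ± 12.4 and 181 ± 30.6.

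Between cells with both sets and cells with S genes alone, 48 of 55 replicative genes and 7 of 10 variants were higher with both sets and none of either was lower, beside 8.97% of 11296 genes higher and 3.98% lower. The median log2 difference was 2.92 over replicative genes, or 2.42 with the 20 genes of at most 3 UMIs in a group set at a floor of 3 UMIs, and 0.78 over variants. Hist1h2ap stood at 0.0901, 0.357 and 1.07 with S genes alone and at 6.90, 14.6 and 38.1 with both (5.34 ± 0.12, higher in 7 of 7 experiments, no overlap). Hist1h2ae was higher by 5.01 ± 0.15, Hist1h1b by 3.93 ± 0.14, H2afx by 3.33 ± 0.11, H1fx by 1.62 ± 0.09 and H2afz by 1.53 ± 0.07. Smaller differences were found for Hist1h1c (1.25 ± 0.13), Hist3h2a (1.04 ± 0.16), H3f3b (0.83 ± 0.06), H1f0 (0.82 ± 0.09), H2afv (0.73 ± 0.07), Hist1h2bc (0.54 ± 0.12), Hist3h2ba (0.52 ± 0.11) and H3f3a (0.24 ± 0.07). H2afj, H2afy and H2afy2 did not pass. Hist1h4k (30 UMIs with both sets and 2 with S genes alone), Hist1h3g (48 and 2) and Hist1h2ag (27 and 0) were called in no other comparison. Within the 3 Version 2 experiments 2 replicative genes (Hist1h2ap and Hist1h2ae) and 6 variants were higher, in a fit whose share of all genes called is not given here.

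The remaining differences between both sets and S genes alone came from all families. Among H2A genes they were in Hist1h2af (4.82 ± 0.31), Hist1h2ak (4.44 ± 0.31), Hist2h2ac (4.07 ± 0.33), Hist1h2ac (2.30 ± 0.34) and Hist2h2aa1 (2.26 ± 0.45), with Hist1h2an at 227 against 3 UMIs, Hist1h2ab at 113 against 1, Hist1h2ai at 91 against 1 and Hist1h2ad at 36 against 0. Among H2B genes they were in Hist1h2bj (4.15 ± 0.43), Hist2h2bb (3.97 ± 0.49), Hist1h2bn (3.30 ± 0.54), Hist1h2bm (3.26 ± 0.46), Hist1h2br (2.90 ± 0.52) and Hist1h2be (2.26 ± 0.40), with Hist1h2bl at 105 against 3 UMIs, Hist1h2bb at 86 against 2, Hist1h2bh at 55 against 2, Hist1h2bg at 52 against 2, Hist1h2bf at 41 against 1 and Hist1h2bp at 36 against 2. Among H3 genes they were in Hist1h3c (4.89 ± 0.36), Hist1h3f (3.79 ± 0.51), Hist1h3e (3.24 ± 0.28), Hist1h3i (2.61 ± 0.46) and Hist1h3d (2.38 ± 0.43), with Hist2h3c1 at 90 against 1 UMI, Hist1h3b at 38 against 1 and Hist2h3c2 at 28 against 1. Among H4 genes they were in Hist1h4d (2.51 ± 0.14), Hist1h4h (1.67 ± 0.22), Hist2h4 (1.53 ± 0.48), Hist1h4i (1.47 ± 0.25) and Hist1h4a (1.43 ± 0.36), with Hist1h4c at 47 against 3 UMIs. The linker genes were Hist1h1a (4.20 ± 0.38), Hist1h1d (2.65 ± 0.23) and Hist1h1e (2.04 ± 0.12).

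Between cells with G2/M genes alone and cells with both sets, 25 of 55 replicative genes were lower and 4 higher, and 3 of 10 variants were lower and none higher, beside 7.85% of 10896 genes lower and 1.18% higher. The median log2 difference was -2.13 over replicative genes, and -0.64 with the 32 genes of at most 3 UMIs in a group set at the floor, so it rests largely on genes too sparse in 63 cells. Hist1h2ap was at 0, 0.727 and 1.28 in G2/M alone, below every experiment's value with both sets (-4.50 ± 0.23). Hist1h1b (-4.06 ± 0.32), Hist1h2ae (-3.60 ± 0.27), Hist1h3e (-3.35 ± 0.57), Hist1h4d (-2.81 ± 0.32) and Hist1h1e (-1.29 ± 0.24) fell in the same way, and Hist1h2bl went from 105 UMIs to 0 and Hist1h2ab from 113 to 0. The other replicative genes that fell had 1 to 3 UMIs left in G2/M-only cells: the H2A genes Hist1h2af, Hist1h2ak, Hist2h2ac, Hist1h2an, Hist2h2aa1 and Hist1h2ai (from 494, 485, 350, 227, 109 and 91 UMIs), the H2B genes Hist1h2bj, Hist2h2bb, Hist1h2bm, Hist1h2bn and Hist1h2bb (from 217, 153, 144, 102 and 86), the H3 genes Hist1h3c, Hist1h3f, Hist1h3i and Hist1h3a (from 381, 135, 113 and 86), Hist1h1a (from 281) and Hist1h4a (from 125). The 4 that were higher were Hist1h2bc (1.74 ± 0.18), Hist1h1c (1.24 ± 0.19), Hist3h2a (1.17 ± 0.21) and Hist3h2ba (1.02 ± 0.19), and Hist1h2bc and Hist3h2ba were higher in 7 of 7 experiments. Hist1h2bc was at 0.623, 1.72 and 2.17 with both sets and 3.73, 5.57 and 11 with G2/M genes alone, and Hist3h2ba at 1.41, 1.66 and 2.12 and at 2.48, 3.99 and 6.79, with no overlap for either. H2afx (-1.15 ± 0.17), H2afy (-0.53 ± 0.17) and H3f3a (-0.46 ± 0.14) were the variants that fell. H2afz did not pass, at 39.5, 47.4 and 50.3 with both sets and 34.4, 48.9 and 68.8 with G2/M genes alone (-0.17 ± 0.13, adjusted p = 0.47). Sums of G2/M cells held as few as 5 cells, and without the 1-month experiment 20 members were called in place of 32.

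**Figure D3:**
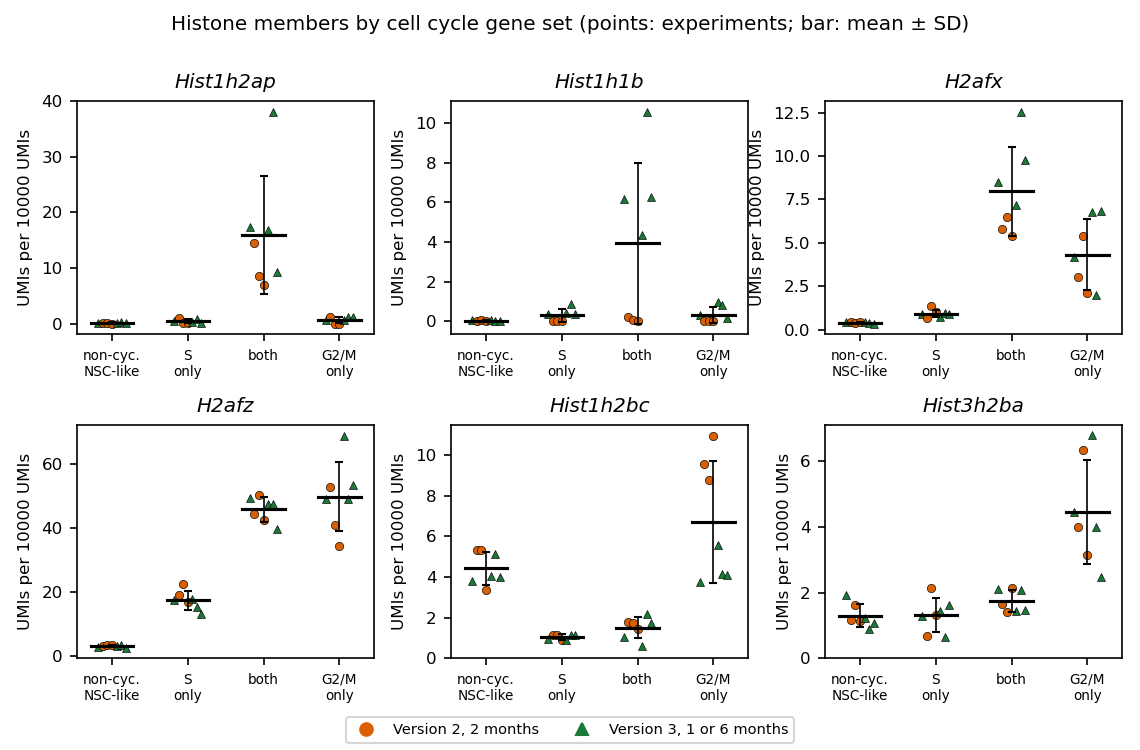
UMIs per 10000 UMIs of 6 histone genes in non-cycling NSC-like cells and in cycling neural progenitors with S genes only, both gene sets or G2/M genes only, with points for the 7 experiments and bars for mean and SD. The cycling neural progenitors are NSC-like and IPC-like cells summed. Hist1h2ap, Hist1h1b and H2afx peak where both sets are expressed, H2afz stays high with G2/M genes only, and Hist1h2bc and Hist3h2ba have their highest means with G2/M genes only (non-cyc.: non-cycling).

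The third question was how the members differ between types of non-cycling cells. From non-cycling NSC-like to non-cycling neuroblast-like cells (1838 and 1070 cells, 7 experiments) 3 of 29 replicative genes rose and 10 fell, and 8 of 10 variants rose and 2 fell, beside 28.7% of 12533 genes higher and 35.8% lower. Hist3h2ba was at 0.901, 1.16 and 1.93 in NSC-like and 6.63, 8.47 and 11.4 in neuroblast-like cells (2.53 ± 0.12, adjusted p = 1.6e-32, higher in 7 of 7 experiments). Hist3h2a was at 1.03, 1.52 and 2.47 against 4.09, 5.37 and 6.09 (1.66 ± 0.11, higher in 7 of 7). Neither overlapped between the types. Among cells with at least 2000 UMIs, thinned to 2000, 78.3% of neuroblast-like and 0.749% of microglia-like cells had a UMI of Hist3h2ba. Before thinning, with cells under 2000 UMIs included, the shares were 88.5% and 1.06%. Hist1h2ae (1.08 ± 0.28) was the third riser, at 96 against 70 UMIs.

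Among variants the H3.3 gene H3f3b was at 7.97, 9.53 and 14 in NSC-like and 48.2, 57.2 and 66.2 in neuroblast-like cells (2.31 ± 0.11, adjusted p = 3.7e-32). H3f3a (1.27 ± 0.10), H2afy2 (2.33 ± 0.14), H1f0 (0.99 ± 0.11), H2afx (0.78 ± 0.14), H1fx (0.78 ± 0.12), H2afz (0.66 ± 0.10) and H2afy (0.27 ± 0.11) were also higher in 7 of 7 experiments. H2afj (-0.97 ± 0.12) and H2afv (-0.41 ± 0.10) were lower. Hist1h2bc fell from 3.38, 4.06 and 5.32 to 1.19, 2.05 and 2.64 (-1.44 ± 0.12, lower in 7 of 7, no overlap). The other falls were in the chromosome 3 genes Hist2h2be (-1.66 ± 0.47), Hist2h2ac (-1.56 ± 0.30), Hist2h3c1 (-1.55 ± 0.40), Hist2h2aa1 (-1.55 ± 0.33) and Hist2h3c2 (-1.10 ± 0.40), in Hist4h4 (-1.60 ± 0.48) and in Hist1h2be (-1.30 ± 0.37), Hist1h4d (-0.69 ± 0.17) and Hist1h4h (-0.35 ± 0.16).

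From non-cycling OPC-like to myelinating oligodendrocyte-like cells (5160 and 6411 cells, 7 experiments) 12 of 35 replicative genes rose and 12 fell, and 5 of 11 variants rose and 5 fell, beside 34.9% of 14461 genes higher and 36.3% lower. Scaling by total UMIs moved the median over all genes from -0.03 to -0.76 and the splits to 9 higher and 16 lower and to 2 and 6, so directions near 0 depend on the scaling. The shares of all genes with total UMIs are not given here. Hist1h2bc was at 0.407, 0.503 and 0.689 in OPC-like and 2.58, 2.94 and 4.81 in myelinating cells (3.28 ± 0.14, adjusted p = 2e-14), and H2afj at 1.28, 1.57 and 2.16 against 5.03, 6.10 and 9.14 (2.77 ± 0.11, adjusted p = 3.9e-15). Both were higher in 7 of 7 experiments without overlap. Hist1h4h (3.11 ± 0.30, higher in 6 of 7), Hist4h4 (2.45 ± 0.30), Hist2h2aa1 (2.34 ± 0.27), Hist1h1c (2.20 ± 0.22, higher in 7 of 7), Hist1h3d (2.00 ± 0.45), Hist2h2ac (1.79 ± 0.27), Hist2h3c2 (1.74 ± 0.39), Hist1h1e (1.05 ± 0.12), Hist2h4 (1.00 ± 0.43), Hist2h3c1 (0.98 ± 0.32) and Hist1h2be (0.75 ± 0.26) rose. H1f0 (1.10 ± 0.10) and H3f3aos (1.74 ± 0.49, 39 against 21 UMIs) rose as well. H3f3a (0.81 ± 0.09) and H3f3b (0.63 ± 0.10) rose with TMM scaling, while H3f3b was at -0.15 with total UMIs and higher per 10000 UMIs in 3 of 7 experiments.

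The genes that fell with myelination included those of cycling cells. Hist1h2ap (-2.45 ± 0.28), Hist1h2ae (-2.40 ± 0.36), Hist1h1b (-2.72 ± 0.52, 6 against 94 UMIs) and Hist1h1d (-2.21 ± 0.69) were lower, and Hist1h1a was at 0 against 32 UMIs, Hist1h3i at 1 against 51 and Hist1h2bf at 1 against 32. Hist1h4i (-1.30 ± 0.44), Hist1h3e (-1.24 ± 0.45), Hist1h4d (-0.87 ± 0.13), Hist3h2ba (-0.37 ± 0.12) and Hist3h2a (-0.34 ± 0.10) also fell. Among variants H2afy2 was at 1.08, 1.37 and 1.75 in OPC-like and 0.0847, 0.137 and 0.195 in myelinating cells (-2.56 ± 0.12, lower in 7 of 7, no overlap), and H1fx (-1.15 ± 0.13), H2afy (-0.51 ± 0.10), H2afv (-0.49 ± 0.09) and H2afx (-0.41 ± 0.10) fell. H2afz did not pass (-0.05).

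Across the non-dividing types, some members differed widely in level. Of the 9 types, Hist1h2bc was highest in astrocyte-like (4.63 ± 1.02) and NSC-like cells (4.43 ± 0.806), which did not differ beyond their spread, then in myelinating (3.35 ± 0.803) and neuroblast-like cells (1.89 ± 0.594), and was at 0.527 ± 0.23 in mural-like cells. A UMI of it was found in 56.8% of astrocyte-like, 51.6% of non-cycling NSC-like, 45.3% of myelinating, 11.8% of cycling NSC-like, 9.02% of OPC-like and 8.61% of microglia-like cells after thinning. Hist3h2ba stood at 8.47 ± 1.54 in neuroblast-like, 2.76 ± 0.55 in OPC-like, 1.66 ± 0.82 in newly formed oligodendrocyte-like and 1.31 ± 0.42 in myelinating cells, and at 0.123 ± 0.0782 or less in endothelial-like, mural-like and microglia-like cells. H3f3b, by contrast, was high in mural-like cells too (35.8 ± 5.04), and was lowest in astrocyte-like cells (5.89 ± 1.04). H1fx had no UMI in thinned microglia-like cells, and H2afy2 had 3 UMIs in all microglia-like sums.

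**Figure D4:**
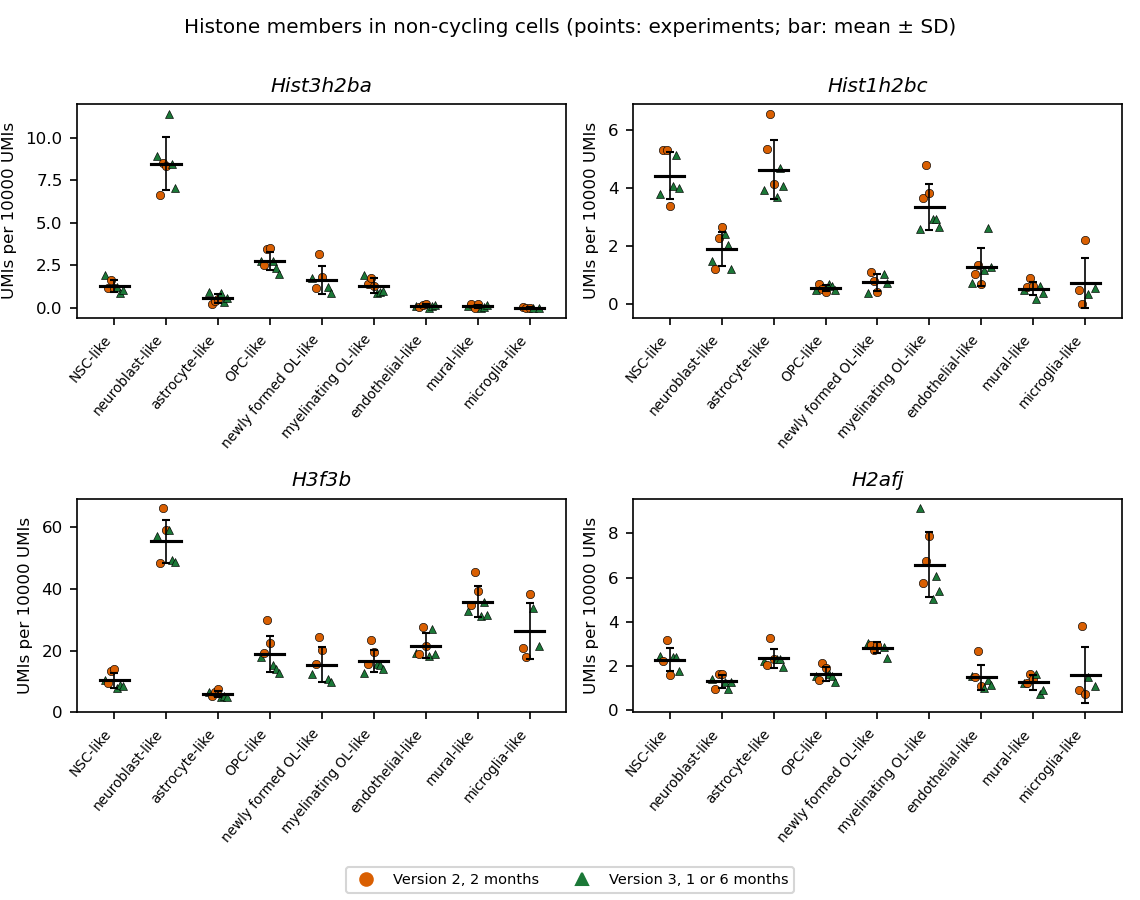
UMIs per 10000 UMIs of Hist3h2ba, Hist1h2bc, H3f3b and H2afj in 9 types of non-cycling cells, with points for experiments (circles Version 2, triangles Version 3) and bars for mean and SD. Neuroblast-like cells stand apart for Hist3h2ba and H3f3b, and myelinating oligodendrocyte-like cells for H2afj.

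The last question was how the members differ between chemistries and ages. In non-cycling NSC-like cells 5 of 23 replicative genes were higher and 3 lower in the 3 Version 2 experiments at 2 months than in the 4 Version 3 experiments, and of 10 variants 1 was higher and 2 lower, beside 5.07% of 11495 genes higher and 5.55% lower. Hist1h4d was at 0.0859 ± 0.0913 in Version 2 and 0.721 ± 0.317 in Version 3 (-3.98 ± 0.45, adjusted p = 4.8e-10), and Hist1h1e at 0.111 ± 0.0464 and 0.762 ± 0.402 (-3.34 ± 0.40, adjusted p = 3.4e-09). Neither overlapped between the chemistries. H1fx (-0.91 ± 0.25), H3f3a (-0.76 ± 0.18) and Hist1h2ae, at 3 against 67 UMIs, were lower too. Higher in Version 2 were Hist2h2aa1 (2.86 ± 0.39), Hist2h2ac (2.07 ± 0.41), Hist2h2be (1.51 ± 0.52), Hist2h3c1 (1.43 ± 0.46), H1f0 (1.28 ± 0.21) and Hist3h2a (0.77 ± 0.20). H1f0 was at 2.17 ± 0.428 in Version 2 and 0.820 ± 0.147 in Version 3, without overlap. Without the 1-month or the first 2-month experiment 7 members were called in place of 11.

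In cycling neural progenitors, a comparison chosen after seeing the data, 30 of 55 replicative genes were lower and none higher in Version 2, and of 10 variants 1 was higher (H1f0, 0.89 ± 0.18) and 1 lower (H3f3a, -0.46 ± 0.15), beside 4.95% of 11371 genes lower and 5.48% higher. The median log2 fold change was -2.43 over replicative genes, or -2.13 with the 15 genes of at most 3 UMIs in a group set at a floor of 3 UMIs over the group, and -0.03 over variants. In cells with both gene sets Hist1h1b was at 6.83 ± 2.64 in Version 3 (4.36 to 10.6) and 0.0781 ± 0.107 in Version 2, Hist1h2ae at 10.0 ± 3.28 (5.52 to 12.6) and 0.497 ± 0.268, and Hist1h1e at 5.15 ± 2.14 (3.34 to 8.10) and 0.172 ± 0.0859. None of these overlapped. Hist1h2ap overlapped, at 20.4 ± 12.4 (9.37 to 38.1) and 10.0 ± 4.05 (6.90 to 14.6), and did not pass over all cycling progenitors (-0.68 ± 0.36, adjusted p = 0.25). H2afz was at 46.0 and 45.7 and Hist3h2ba at 1.77 and 1.73.

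Over all cycling progenitors the fitted changes were -5.42 ± 0.45 for Hist1h1b, -4.59 ± 0.40 for Hist1h1e, -4.08 ± 0.47 for Hist1h4d and -4.03 ± 0.29 for Hist1h2ae. Lower too were the linker gene Hist1h1d (-3.55 ± 0.39), with Hist1h1a at 3 UMIs in Version 2 and 285 in Version 3, the H2A genes Hist1h2af (-4.38 ± 0.45), Hist1h2ab (-2.18 ± 0.65) and Hist2h2aa1 (-1.80 ± 0.49), with Hist1h2ad at 0 against 36 UMIs, and the H3 genes Hist1h3c (-4.65 ± 0.60) and Hist1h3i (-2.74 ± 0.57), with Hist1h3f at 0 against 140 UMIs and Hist1h3a at 2 against 106. Among H2B genes Hist2h2bb (-3.74 ± 0.62), Hist1h2bn (-3.11 ± 0.63), Hist1h2bj (-3.07 ± 0.49), Hist1h2bl (-2.52 ± 0.55), Hist1h2bm (-2.43 ± 0.50) and Hist1h2be (-2.13 ± 0.47) were lower, and Hist1h2bb was at 3 against 86 UMIs, Hist1h2bh at 1 against 63, Hist1h2bg at 3 against 58 and Hist1h2bf at 1 against 42. With robust estimation of the spread 23 of the 30 were called, and Hist1h4d, Hist1h4a, Hist1h4h, Hist1h3e, Hist1h2ak, Hist1h2an and Hist2h2ac were lost. Of genes with a poly(A) signal near their annotated end 3 of 13 were lower, and of those without 27 of 42 were lower. By the stem-loop letters, 21 of 39 genes with them in the annotated transcript and 9 of 16 without were lower. Short annotated transcripts can lack either feature because of where they end. The part of chemistry, age and the annotated ends in this difference was not tested.

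**Figure D5:**
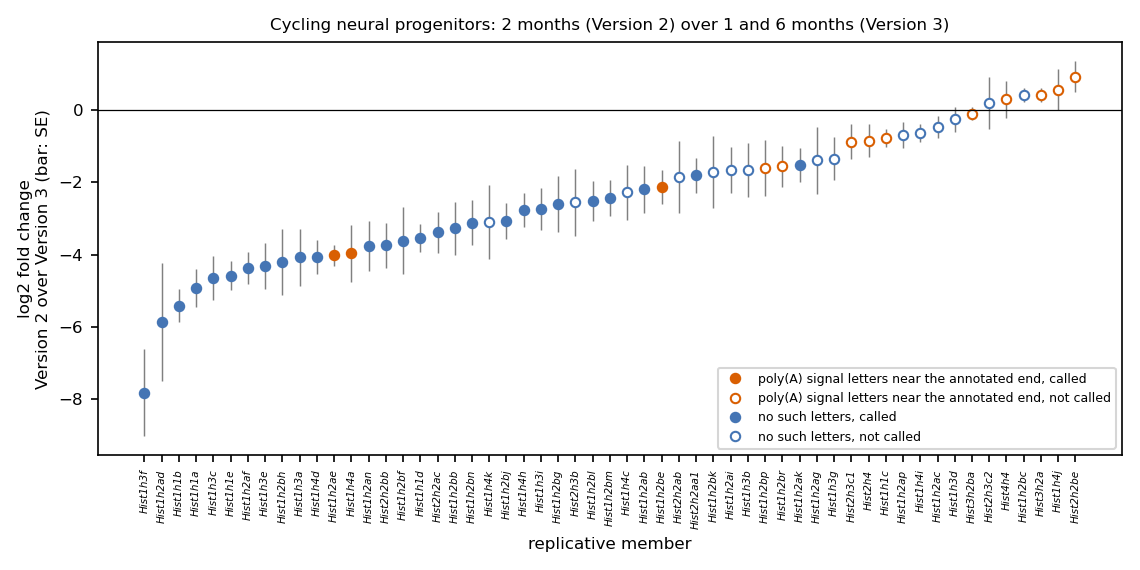
Log2 fold change of Version 2 (2 months) over Version 3 (1 and 6 months) in cycling neural progenitors (y axis, bar: standard error) for the 55 replicative genes tested, ordered by value, with orange points for genes with a poly(A) signal near the annotated end, blue points for the others and filled points for an adjusted p under 0.05. The 30 filled points all lie below 0, Hist3h2ba, Hist3h2a and Hist1h2bc lie near 0, and the fitted values at the far left, such as that of Hist1h3f with 0 UMIs in Version 2, depend on the prior count of the fit and are no bounds.

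Between 6 months and 1 month, both Version 3, the non-cycling NSC-like cells differed in 1 of 23 replicative genes and in none of 10 variants, beside 0.531% of genes higher and 0.374% lower. Hist3h2ba was lower at 6 months (1.22, 0.901 and 1.08 against 1.93 in the single 1-month experiment, -0.97 ± 0.25, adjusted p = 0.036 by edgeR). Over all genes 890 were at an unadjusted p under 0.05. The lone 1-month experiment was assumed to vary like the others, and the call was lost with DESeq2, with total UMIs in place of TMM, and without the third 2-month, the first 6-month or the third 6-month experiment.

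Genes that supply, process or deposit histones were counted from a fixed list of 27. With cycling, 20 of 26 tested rose in NSC-like, 13 of 25 in IPC-like and 17 of 27 in OPC-like cells, and none fell, beside 24.5%, 4.46% and 12.1% of all genes higher. In NSC-like cells Slbp rose by 2.91 ± 0.12, the histone chaperones Nasp by 3.24 and Asf1b by 6.08, the subunits Chaf1a and Chaf1b of the replication-coupled chaperone CAF-1 by 4.09 and 7.23, the acetyltransferase Hat1 by 2.68 and the centromeric H3 variant Cenpa by 6.44. In OPC-like cells Slbp rose by 2.11, Asf1b by 6.76, Chaf1b by 6.42 and Cenpa by 6.24. The interaction was higher in neural progenitors for 10 of 27 and lower for 1, beside 16.7% and 14.6% of all genes. The same mix of IPC-like and NSC-like cells stands behind these values. Between S and G2/M, 6 of 26 were higher in S, Slbp (0.82), Chaf1b (2.13) and Hat1 (0.87) among them, and 3 were lower, Cenpa (-4.87), its chaperone Hjurp (-1.27) and the H2A.Z chaperone Anp32e (-1.01), beside 9.14% and 10.4% of all genes. From S genes alone to both sets, 12 of 26 rose, beside 8.97% of all genes, with Slbp at 0.78, Asf1b at 3.31 and Cenpa at 4.81. From both sets to G2/M genes alone, 12 of 26 fell and 1 rose, beside 7.85% and 1.18% of all genes, with Slbp at -3.40 ± 0.29, Chaf1b at -3.91, Asf1b at -3.69 and Cenpa at 1.00. Slbp and the S-phase histones Hist1h2ap and Hist1h1b were thus both lower with G2/M genes alone.

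Between types, 13 of 25 were higher and 2 lower in neuroblast-like than in NSC-like cells, beside 28.7% and 35.8% of all genes, with Nasp at 1.76, the H3.3 chaperones Hira at 1.71 and Daxx at 1.29, and Hat1 at -1.39. From OPC-like to myelinating cells 11 of 26 rose, near the 34.9% of all genes, and 3 fell, beside 36.3%, with the histone gene activator Npat at 1.55 and Cabin1 at -0.96. The shift of the median over all genes with total UMIs, from -0.03 to -0.76, applies to these values as well. Between chemistries in non-cycling NSC-like cells 1 of 23 was higher in Version 2 (Slbp, 0.96) and 3 were lower, beside 5.07% and 5.55% of all genes, and in cycling progenitors 1 of 26 was higher (Slbp, 0.62) and 3 lower, beside 5.48% and 4.95%. Between 6 months and 1 month none of 23 passed.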

How the data were processed

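UMI counts per gene and barcode were deposited by the authors as 1 unnormalised matrix of the 8 merged libraries. Per the study's methods and the labels, they were made with Cell Ranger 3.0.2 against a custom mm10 reference that also held the reporter elements, and the libraries were merged without scaling for depth. The strand setting of the counting is not given in the sources used here. The study's filters (above 500 genes, below 10% of UMIs mitochondrial) were applied to the barcodes, and no doublet caller was run beyond removing cells with markers of several lineages.

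The histone genes, marker lists, comparisons and named genes were chosen with earlier results of these data known. Named genes were the 12 replicative members with most UMIs, the variants with a UMI in at least 1% of kept cells, and any other member called in a comparison. Cells were gated by the number of markers detected per list, with lower limits for Version 2. A cycling cell had at least 5 S-phase or 7 G2/M genes in Version 2 (10 or 14 in Version 3) and at least 40 UMIs of both lists per 10000. A non-cycling cell lay under 4 and 5 genes (7 and 10) and under 30 per 10000. Cells between these limits entered no comparison.

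Counts were summed per experiment and population, with at least 3 cells per sum, and the 2 separately sorted libraries of the first 2-month experiment were added together, so the replicate was the experiment (n = 7, each a pool of mice). Genes with at least 20 UMIs over the sums of a comparison were tested with edgeR 4.0.16 (quasi-likelihood F test, TMM scaling, Benjamini-Hochberg adjustment over all genes tested at 0.05). The experiment was a block wherever both populations came from the same experiments, since these share animals and libraries, so the pairing comes from the design. The SE is the absolute log2 fold change over the square root of F. In 6 of the 12 comparisons edgeR pooled the spread fully over genes, so that very small p-values rest on that pooled spread. A fit with robust estimation of the spread, which pools genes of outlying spread less, was run beside them. The steps were tested on simulated counts. Alternatives used DESeq2 1.42.0, other scalings and filters, the cycling rule of the study, no block, each experiment left out, each chemistry alone and the mixed-sort library left out. Counts of members called under an alternative are given without the share of all genes called under it. The comparisons by both, S-only or G2/M-only gene sets and of chemistry in cycling cells, the robust fit, the fits within a chemistry and the fit without the mixed-sort library were chosen after seeing the data. Transcript windows and stem-loop letters were read from GENCODE M21 transcripts, promoters from RefSeq GRCm38.p6. Libraries held 4589597 to 43250922 UMIs. Shares of cells were compared after thinning to 2000 UMIs per cell. Cells under 2000 UMIs were left out of the thinned shares but not of the shares before thinning. Non-cycling NSC-like cells had medians of 1330.5 to 2455 UMIs in the Version 2 experiments, so thinned shares lean towards Version 3.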

Additional observations from a re-analysis of the deposited data

Results flagged for a closer look

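In 12 of 97 groups of 4 to 7 experiments, an experiment lay far from the others, by a limit that about 1 in 20 independent normal samples would exceed. The groups share cells and genes and some hold levels near 0, so the count cannot be read against that share. The second 6-month experiment accounted for 7 of the 12. Its replicative histone level was 77.15 UMIs per 10000 in cycling NSC-like and 182 in cycling neuroblast-like cells, and Hist1h2ap was at 26.95 in its cycling NSC-like, 0.3264 in its non-cycling NSC-like and 0.5046 in its neuroblast-like cells. Hist1h1b was at 0.01978 in its astrocyte-like and 0.005807 in its myelinating oligodendrocyte-like cells, where the other experiments were at or near 0. Without this experiment the mean replicative level of cycling NSC-like cells was 17.72.

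The other distant values were scattered. The second 2-month experiment had a replicative level of 13.83 and H2afj at 3.285 in astrocyte-like cells. The first 6-month experiment had a variant level of 243.8 in progenitors with G2/M genes alone. The third 6-month experiment had Hist1h1b at 0.03762 in neuroblast-like cells, and the 1-month experiment had Hist1h2ae at 0.05861 in myelinating oligodendrocyte-like cells.

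The effect of cycling differed between neural progenitors and OPC-like cells for 21 members, by the interaction test. In neural progenitors this effect also holds the difference between the mostly IPC-like cycling and the mostly NSC-like non-cycling cells. Variants with a higher log2 effect in neural progenitors were H2afy2 (1.995), H3f3b (1.85), H2afz (1.336), H2afx (1.102), H3f3a (0.9966), H1f0 (0.9097), H2afy (0.7842) and H2afv (0.4751), and replicative members were Hist3h2ba (1.276), Hist1h2ae (0.8063) and Hist3h2a (0.7776). Lower effects were found for Hist1h3c (-2.833, with 1 and 0 UMIs in non-cycling NSC-like and OPC-like cells), Hist1h4h (-2.57), Hist2h2ac (-2.386), Hist2h2aa1 (-2.174), Hist1h2ac (-2.071), Hist1h4i (-1.99), Hist1h3a (-1.947), Hist1h2bc (-1.376), Hist1h2be (-1.084) and Hist1h1c (-0.7926).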

How the results depend on the processing

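Of 226 alternative counts of called members, 190 stayed within 1.5 times the reported count, and of 359 member calls, 169 were kept under every alternative that gave a value. The first tally compares totals alone, not direction or which members were called. It holds the interaction with the cycling rule of the study as within that limit, though the replicative split turned there. The limits are few cells in some sums, age and chemistry that change together, and near-identical genes. Where no other reason is given, the cause of a change was not tested.

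Requiring a gene in 20% of the cells of either group leaves fewer genes to test. It gave 19 calls for cycling in NSC-like cells, 16 in OPC-like cells, 13 for the interaction, 24 for S against G2/M, 14 for neuroblast-like cells, 14 for myelinating cells, 6 for chemistry in non-cycling NSC-like cells, 25 for both sets against S genes alone, 18 for G2/M alone against both sets and 17 for chemistry in cycling cells. DESeq2 gave 6 calls in IPC-like cells, 13 for the interaction, 7 for chemistry in non-cycling NSC-like cells, 13 for G2/M alone and 0 for age, where total UMIs also gave 0.

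The pairing by experiment comes from the design. Without the replicate block, the calls numbered 41 in NSC-like, 9 in IPC-like and 39 in OPC-like cells, 9 for the interaction, 15 for S against G2/M, 16 for neuroblast-like cells, 31 for myelinating cells, 33 for both sets and 12 for G2/M alone.

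In the Version 2 experiments alone, with fewer samples, 18 members were called in NSC-like, 8 in IPC-like and 4 in OPC-like cells, 5 for the interaction, 15 for S against G2/M, 21 for myelinating cells, 8 for both sets and 4 for G2/M alone. Directions turned there for Hist2h2ac (-3.511) and Hist1h2ac (-0.8017) in NSC-like cells, for H2afy2 (-0.04811) and Hist1h1c (-6.656) in OPC-like cells, and in the interaction for Hist2h2ac (1.828), Hist2h2aa1 (1.613), Hist1h2be (2.654), Hist1h2ac (2.362), Hist1h2bc (6.643) and Hist1h1c (7.166), on sums of 8 and 14 cycling OPC-like cells. Elsewhere the interaction turned for Hist1h1c with the cycling rule of the study (0.1637) and for Hist1h3a without the 1-month experiment (1.775, lowest of its left-out values -2.324), and H3f3b in myelinating cells turned with total UMIs (-0.1509). That rule also moved the variant level to 105.5 in cycling NSC-like and 59.75 in cycling OPC-like cells.

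Leaving out each experiment gave 37 to 46 calls in NSC-like, 8 to 13 in IPC-like and 40 to 47 in OPC-like cells, 16 to 21 for the interaction, 34 to 45 for S against G2/M, 21 to 24 for neuroblast-like cells, 26 to 35 for myelinating cells, 7 to 11 and 28 to 34 for chemistry in non-cycling and cycling cells, 0 to 1 for age, 44 to 55 for both sets and 20 to 31 for G2/M alone. Robust estimation of the spread gave 17 calls for the interaction, 25 for chemistry in cycling cells and 44 in NSC-like cells. A minimum of 20 cells could not be fitted for IPC-like and G2/M-only cells, nor age without its only 1-month experiment, and the cycling rule of the study was not run on the gene-set splits.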

Other observations

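Cycling OPC-like cells split by gene set showed a replicative level of 3.76 ± 1.83 UMIs per 10000 with S genes alone (122 cells, 5 experiments), 54.1 ± 39.6 with both sets (105 cells, 5 experiments) and 10.7 ± 2.57 with G2/M genes alone (29 cells, 3 experiments), so the order was that of neural progenitors between S genes alone and both sets. Hist1h2ap ran from 7.07 to 74.2 over experiments in the cells with both sets. Both ends came from the 2 Version 2 experiments, whose sums held only 6 of these cells. In the 3 Version 3 experiments (99 cells) the replicative level with both sets ran from 31.9 to 106. No test was run on these bins.

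Cycling cells that no marker list assigned (528 cells) held a replicative level of 45.1 ± 34.3 (22.9 to 118, n = 7) and a variant level of 185 ± 16.7. Neuroblast-like cells between the cycling and non-cycling limits (760 cells) were at 19.2 ± 2.72 and 110 ± 5.59. The 38 fibroblast-like cells had a replicative level of 9.77.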
